A study of Homo sapiens with 10 samples.

Results

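The regions described here carry H3K27ac, a histone acetylation found at active promoters and enhancers, and lie nearest to a gene for a cytokine or a chemokine. They were chosen by name alone: a region of the annotated count table was taken when its gene symbol was a CXCL, CCL or CX3CL1 chemokine, an interleukin, a colony-stimulating factor, LIF, TSLP, TNF, a TNF superfamily ligand or an interferon. The choice gave 169 regions of 37 genes out of 67387 annotated regions of 15633 genes, and out of 169637 regions counted in all. Of the 169 regions, 60 at 24 genes lay within 3 kb of a transcript start and are called promoter regions, and 109 at 26 genes lay elsewhere and are called distal regions. A distal region was given to the gene with the nearest start, which is not evidence that it acts on that gene.

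H3K27ac ChIP-seq was run on H1975, an EGFR-mutant lung adenocarcinoma cell line, in 3 groups of 3 libraries that the labels call biological triplicates. The DMSO group grew drug-free for 21 days and then had DMSO for 3 days. The osimertinib DTP group (drug-tolerant persisters, cells that survive a targeted drug without being genetically resistant) had 500 nM osimertinib, an EGFR inhibitor, for 24 days. The osimertinib DTP + AZD5153 group had 500 nM osimertinib for 21 days and then 150 nM AZD5153 for 3 days. Whether osimertinib was kept on during those 3 days is not given in the sources used here. Below, "with AZD5153" names this group against DMSO unless another comparison is stated, so its differences include those of the osimertinib exposure. A pooled input library without enrichment served as background.

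Cytokines and chemokines are small secreted or membrane-bound proteins through which tumour cells and immune cells signal to each other. CXC chemokines with an ELR motif draw neutrophils, CC chemokines draw monocytes, lymphocytes and eosinophils, colony-stimulating factors feed the growth of myeloid cells, and TNF superfamily ligands act on costimulatory or death receptors. Many of these genes have compact promoters on which NF-kappaB and AP-1 meet, and distant enhancers that gain H3K27ac when the gene is switched on.

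Promoter windows are shown first, and a member region lay over at least part of each one shown except that of CXCL8. RefSeq promoter sequences (GRCh38.p14) were at hand for 27 of the 37 genes, and CCL2, CSF1, CX3CL1, IL15, IL18, IL22, IL34, LIF, TNFSF12 and TNFSF8 had no entry. The 250 bases upstream of each gene's start were searched on both strands for an NF-kappaB-like motif (GGNNTTTCC), an AP-1 motif (TGANTCA) and a TATA motif (TATAAA), where N is any base. Matches are in capitals, no matches overlapped in the windows shown, and each sequence reads 5′ to 3′ on the gene's own strand. The IL32 window (chr16:3065153-3065402, plus strand) lay mostly under a region that rose in osimertinib DTP cells. The TNFSF13 window (chr17:7558500-7558749, plus strand) lay under one that was higher in both treated groups. The IL11 window (chr19:55370464-55370713, minus strand) lay partly under one called lower than DMSO in the osimertinib DTP + AZD5153 group. CXCL2 (chr4:74099196-74099445, minus strand), CXCL3 (chr4:74038690-74038939, minus strand) and IL6 (chr7:22726950-22727199, plus strand) are shown as promoters whose regions did not pass the test, and CXCL8 (chr4:73740319-73740568, plus strand) as one with no member region over it.
IL32: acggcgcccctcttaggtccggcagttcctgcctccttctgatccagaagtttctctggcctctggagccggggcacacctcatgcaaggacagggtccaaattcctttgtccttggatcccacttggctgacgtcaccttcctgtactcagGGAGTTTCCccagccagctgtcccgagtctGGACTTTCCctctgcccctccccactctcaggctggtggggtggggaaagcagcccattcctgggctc
TNFSF13: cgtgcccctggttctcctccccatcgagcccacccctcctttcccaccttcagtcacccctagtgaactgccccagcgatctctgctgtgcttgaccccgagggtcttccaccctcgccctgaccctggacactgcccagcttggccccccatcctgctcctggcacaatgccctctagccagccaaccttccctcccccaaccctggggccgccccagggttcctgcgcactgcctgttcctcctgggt
IL11: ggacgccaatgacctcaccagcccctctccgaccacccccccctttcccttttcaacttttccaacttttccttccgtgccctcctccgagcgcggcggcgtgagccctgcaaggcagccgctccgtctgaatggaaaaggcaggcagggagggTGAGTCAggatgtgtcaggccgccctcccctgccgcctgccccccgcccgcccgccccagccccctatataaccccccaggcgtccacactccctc
CXCL2: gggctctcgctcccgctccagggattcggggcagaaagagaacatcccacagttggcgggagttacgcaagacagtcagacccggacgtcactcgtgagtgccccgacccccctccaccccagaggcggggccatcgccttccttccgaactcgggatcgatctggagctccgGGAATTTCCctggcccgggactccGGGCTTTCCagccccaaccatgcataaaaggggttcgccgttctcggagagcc
CXCL3: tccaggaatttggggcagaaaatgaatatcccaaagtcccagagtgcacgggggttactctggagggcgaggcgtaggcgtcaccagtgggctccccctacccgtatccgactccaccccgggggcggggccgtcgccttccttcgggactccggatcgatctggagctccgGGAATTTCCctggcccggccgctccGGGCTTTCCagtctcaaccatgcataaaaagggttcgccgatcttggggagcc
IL6: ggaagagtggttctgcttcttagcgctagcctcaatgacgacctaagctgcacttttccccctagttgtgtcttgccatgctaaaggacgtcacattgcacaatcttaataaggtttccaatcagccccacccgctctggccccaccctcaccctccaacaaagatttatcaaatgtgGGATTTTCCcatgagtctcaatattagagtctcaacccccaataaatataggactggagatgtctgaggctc
CXCL8: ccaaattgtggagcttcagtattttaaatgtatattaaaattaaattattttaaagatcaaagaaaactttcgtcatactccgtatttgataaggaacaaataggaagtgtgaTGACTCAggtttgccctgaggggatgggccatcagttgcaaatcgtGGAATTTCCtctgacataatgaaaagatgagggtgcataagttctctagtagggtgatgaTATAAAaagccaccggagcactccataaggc

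The NF-kappaB-like letters stood in 9 of the 27 member windows (33.3%), against 5.48% of all 35116 promoter windows of the same length. Of those shown, the IL32, CXCL2 and CXCL3 windows each held a pair of matches, and IL6 and CXCL8 held 1 each. AP-1 letters stood in 3 of the 27 windows (11.1%, against 6.57% of all), among them IL11 and CXCL8, and TATA letters in 7 (25.9%, against 10.7%). The TNFSF13 window held none of the 3 motifs. A match is a run of letters and not a bound site, and windows with and without matches were found among promoters that changed and promoters that did not.

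Levels are given as CPM, a region's counts scaled to a common library total after TMM normalization, for regions of 502 bp each. The libraries held 6263443 to 10463351 counts in regions, and the 169 member regions took 9591 to 18857 of them. Mean levels of the member regions ran from 1.69 to 56.2 CPM, and 4 member regions had no count in osimertinib DTP + AZD5153 replicate 3. That library stood apart: its lowest Spearman correlation with a library of its own group was 0.367, where DMSO libraries correlated at 0.86 or more and osimertinib DTP libraries at 0.805 or more, and 73.2% of its annotated counts lay in promoter regions. This promoter share was 66.2% in osimertinib DTP replicate 2 and 48.3% to 54.3% in the other 7 libraries. For the regions and sums described singly, values without osimertinib DTP + AZD5153 replicate 3 are given where leaving it out ended a call or moved a called value by more than 1.5 times, and for some of the calls gained without it. Lung epithelial markers had regions at 10 of 10 genes and a summed level of 1350 to 2270 CPM. Of their 127 regions, 4 were higher and 13 lower than DMSO in osimertinib DTP cells (13.4% called, against 10.7% of all tested regions). With AZD5153 10 were higher and 22 lower (25.2% called, against 18.1%). Of 8 leukocyte markers CD14 alone had a region. The tests compare bulk chromatin, in which more H3K27ac per cell and more cells with H3K27ac cannot be told apart.

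The first comparison asked what long osimertinib exposure did to these genes. In osimertinib DTP cells, 17 of the 169 regions differed from DMSO at an adjusted p below 0.05 (edgeR quasi-likelihood test, Benjamini-Hochberg over all 157919 regions tested), 10 of them higher and 7 lower. That is 10.1% of the member regions, where 10.7% of all tested regions were called (5.58% higher and 5.13% lower). The tested regions include many without annotation, while every member is annotated, so the annotated classes are the closer comparison. By class, 8 of the 60 promoter regions and 9 of the 109 distal regions were called, where 6.68% of all annotated promoter and 20.6% of all annotated distal regions were. The called share was thus larger than that of the class for promoter members and smaller for distal members. The regions that rose lay at CCL2, TNFSF9, TNFSF13, TNFSF4 and IL32. The regions that fell lay at CCL26, IL15, CCL20, IL37, CCL22 and CX3CL1. In all 17, the 3 treated and the 3 control libraries did not overlap, as was the case for 59 higher and 36 lower member regions in all and for 20.2% (higher) and 18.9% (lower) of all tested regions. DESeq2, which scales by median ratios, called 16 higher and 19 lower (17.7% of all regions), and a fit of only both groups called 64 (26.4% of all).

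In osimertinib DTP + AZD5153 cells, 42 regions differed from DMSO, 29 higher and 13 lower. This was 24.9% of the member regions against 18.1% of all tested regions (9.05% higher and 9.01% lower). By class, 15 of the 60 promoter and 27 of the 109 distal regions were called, where 11.6% of all annotated promoter and 30.4% of all annotated distal regions were. Against these closer classes the called share was again larger for promoter members and smaller for distal members. The groups did not overlap in 40 of the 42, and in 44 higher and 25 lower member regions in all, against 14.4% (higher) and 19% (lower) of all tested regions. The added higher calls were mostly at CSF1, with others at CCL2, IL34, IL1B, LIF, TNFSF10 and TNFSF8, and the added lower calls were at IL11, IL12A, IL15, IL24, CSF2 and CXCL8. A set of 15 regions was called in both comparisons with DMSO, none in opposite directions, and both comparisons share the DMSO libraries. Scaling by total counts in place of TMM, which lowers this difference by 0.24 on the log2 scale for every region, gave 19 higher and 14 lower (15.7% of all regions), and a fit of only both groups called 26 (11.4% of all).

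These counts depended on single libraries. For osimertinib DTP against DMSO, 0 member regions were called without DMSO replicate 2 (of all regions, 0.701%), 1 without DMSO replicate 3 (1.94%), 8 without DMSO replicate 1 (5.04%), 5 without osimertinib DTP replicate 1 (5.2%) and likewise 5 without its replicate 2 (3%), 2 without its replicate 3 (2.75%), and 66 (39 higher, 27 lower) without osimertinib DTP + AZD5153 replicate 3, where 26.8% of all regions were called (14.2% higher, 12.7% lower). For osimertinib DTP + AZD5153 against DMSO, 6 were called without DMSO replicate 2 (of all regions, 5.16%), 7 without DMSO replicate 3 (6.14%), 23 without the combination's replicate 1 (10.2%), and 68 (46 higher, 22 lower) without its replicate 3, where 35.7% of all regions were called (18.4% higher, 17.3% lower). All 17 regions of the first comparison and 37 of the 42 of the second were called also without that replicate 3. With replicates as blocks 19 and 35 member regions were called (10.4% and 17.5% of all regions), and at an adjusted p under 0.01 the counts were 1 and 7 (2.39% and 6.2%). In the first comparison calls at TNFSF9 and TNFSF13 were lost with the block, and calls were gained at 2 CCL2 promoter regions (adjusted p = 0.0423 each), at IL12A (adjusted p = 0.0499, 23861 bp upstream) and at IL18 (adjusted p = 0.0495). The regions at which no single library ended the second call numbered 5, at CCL26, CCL20, IL15, TNFSF4 and CSF1.

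**Figure D1:**
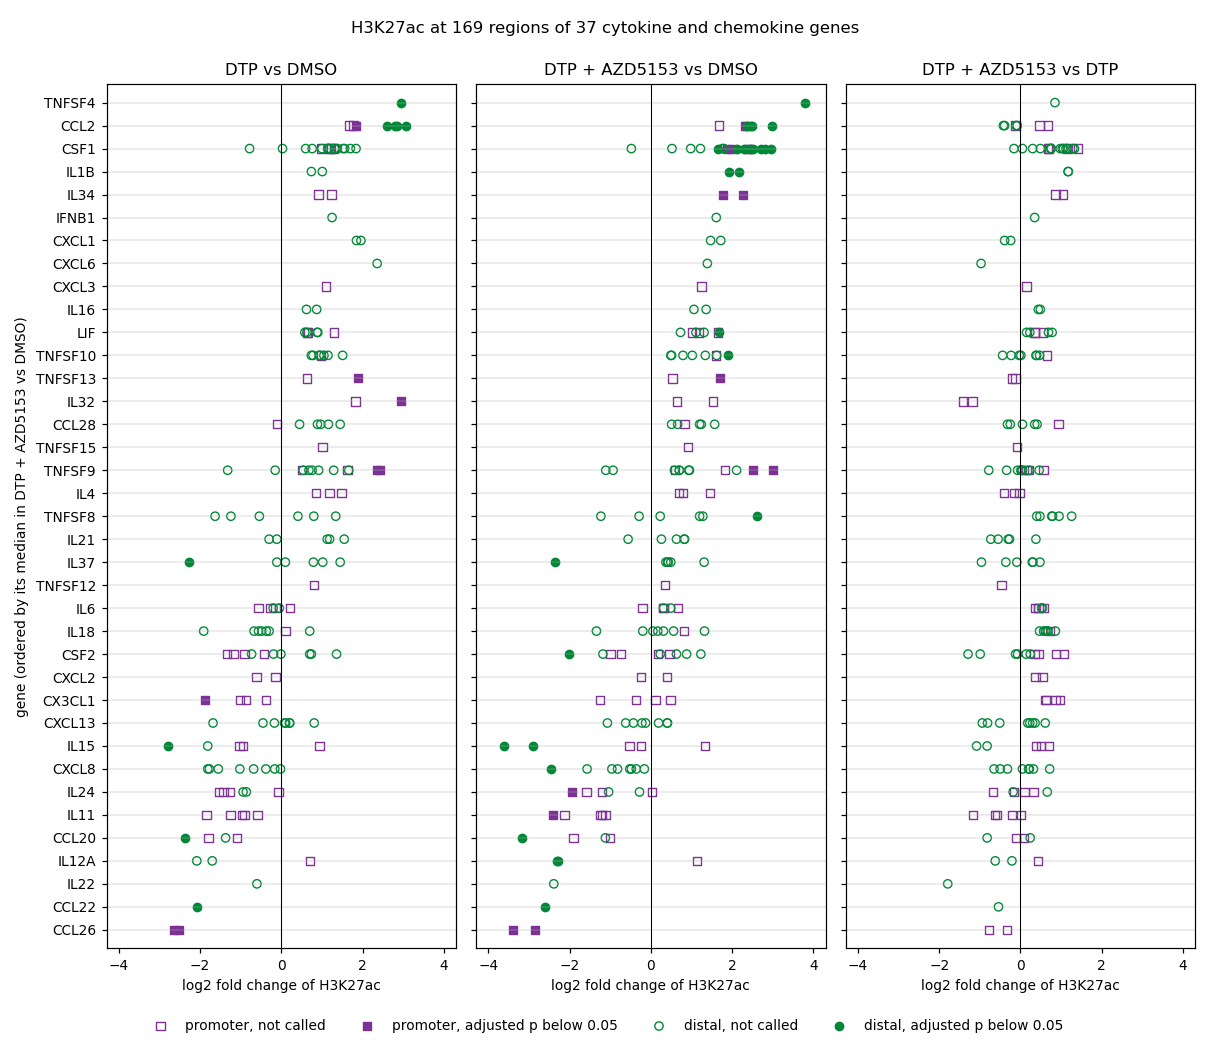
Log2 fold change of H3K27ac (x axis) at every member region, by gene (y axis), in the 3 comparisons. Squares are promoter and circles distal regions, and filled symbols have an adjusted p below 0.05. CCL2, TNFSF4 and 17 of the 18 CSF1 regions lie to the right and CCL26, CCL22 and CCL20 to the left of 0 against DMSO, and no symbol is filled in the comparison of the treated groups.

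CC chemokine genes had 20 regions, of which 5 were higher and 4 lower in osimertinib DTP cells and 6 higher and 4 lower with AZD5153. Over all tested regions 5.58% were higher and 5.13% lower in osimertinib DTP cells, and 9.05% and 9.01% with AZD5153. CCL2, the main attractant of monocytes, had 7 regions, and 5 of them rose in osimertinib DTP cells. The largest rise was 4105 bp upstream of the start, at chr17:34250679-34251180. Its level was 2, 1.03 and 0.101 CPM in the DMSO libraries, 11.9, 5.84 and 8.86 CPM in the osimertinib DTP libraries and 12.8, 6.52 and 5.8 CPM in the osimertinib DTP + AZD5153 libraries. Every treated library lay above every DMSO library, and the treated groups overlapped each other. The log2 difference from DMSO was 3.06 ± 0.74 (SE, n = 3 per group; adjusted p = 0.0159) in osimertinib DTP cells and 2.98 ± 0.74 (adjusted p = 0.0115) with AZD5153. The DMSO counts here were 22, 10 and 1, so the size of the fold rests on few counts, and the highest adjusted p over the leave-outs was 0.0972, without DMSO replicate 2.

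At the CCL2 start itself (5 bp upstream, chr17:34254779-34255280) H3K27ac was 7.89, 4.03 and 2.41 CPM in DMSO, 20.2, 16.7 and 8.76 CPM in osimertinib DTP and 33.4, 28.6 and 11.2 CPM with AZD5153. The groups of treated libraries did not overlap with DMSO. The log2 difference was 1.67 ± 0.62 in osimertinib DTP cells (adjusted p = 0.0915, and 0.0423 with replicates as blocks) and 2.35 ± 0.63 with AZD5153 (adjusted p = 0.017). Summed over the 4 distal CCL2 regions, the rise was 2.87 ± 0.64 (adjusted p = 0.00762) and 2.66 ± 0.63 (adjusted p = 0.00807), and over the 3 promoter regions 1.77 ± 0.56 (adjusted p = 0.0522, and 0.0283 with the block) and 2.12 ± 0.57 (adjusted p = 0.0162).

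CCL26, the eosinophil attractant eotaxin-3, went the other way. Its region over a transcript start (chr7:75771825-75772326) had 9.16, 15.2 and 11.5 CPM in DMSO, 1.91, 2.37 and 1.51 CPM in osimertinib DTP and 1.1, 1.28 and 0.966 CPM with AZD5153. All 6 treated libraries lay far below the 3 DMSO libraries. The log2 differences were -2.63 ± 0.55 (adjusted p = 0.00804) and -3.39 ± 0.58 (adjusted p = 0.0018), a fall by 6.17-fold and 10.5-fold. The sum of both CCL26 regions fell by 2.6 ± 0.55 on the log2 scale (adjusted p = 0.00566) and by 3.23 ± 0.57 (adjusted p = 0.00118), and these 2 sums stayed below an adjusted p of 0.05 whichever of the 9 libraries was left out (highest 0.0431 and 0.00972). RefSeq places the CCL26 gene start elsewhere, so its promoter window is not the one measured here.

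CCL20, which draws cells with CCR6, fell most at a region 3981 bp downstream of its start (chr2:227819350-227819851). The levels were 11.9, 12.8 and 9.65 CPM in DMSO, 2.96, 0.696 and 2.92 CPM in osimertinib DTP and 1.3, 1.28 and 1.16 CPM with AZD5153. The groups did not overlap with DMSO, and the log2 differences were -2.36 ± 0.59 (adjusted p = 0.0184) and -3.18 ± 0.63 (adjusted p = 0.00351). All 4 CCL20 regions had negative differences, and the one with the highest level, 3298 bp downstream, gave -1.37 ± 0.62 (adjusted p = 0.172) and -1.12 ± 0.62 (adjusted p = 0.224).

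CCL22, a ligand of CCR4, had a single region, 17157 bp upstream, with 12.6, 23.9 and 15.3 CPM in DMSO, 5.83, 3.9 and 2.52 CPM in osimertinib DTP and 2.91, 4.77 and 0.58 CPM with AZD5153. Every treated library was lower than every control. The log2 difference was -2.07 ± 0.65 (adjusted p = 0.0487) and then -2.61 ± 0.67 (adjusted p = 0.0134). CCL28, a mucosal chemokine, had 6 regions and no call. Its promoter region measured 17.2, 26.6 and 18.8 CPM in DMSO, 12.8, 35.1 and 10.2 CPM in osimertinib DTP and 30.7, 27.1 and 53.7 CPM with AZD5153, with log2 differences of -0.11 ± 0.56 (adjusted p = 0.934) and 0.83 ± 0.56 (adjusted p = 0.337). That region lies at another transcript start than the RefSeq CCL28 gene start, whose promoter window had no member region over it.

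**Figure D2:**
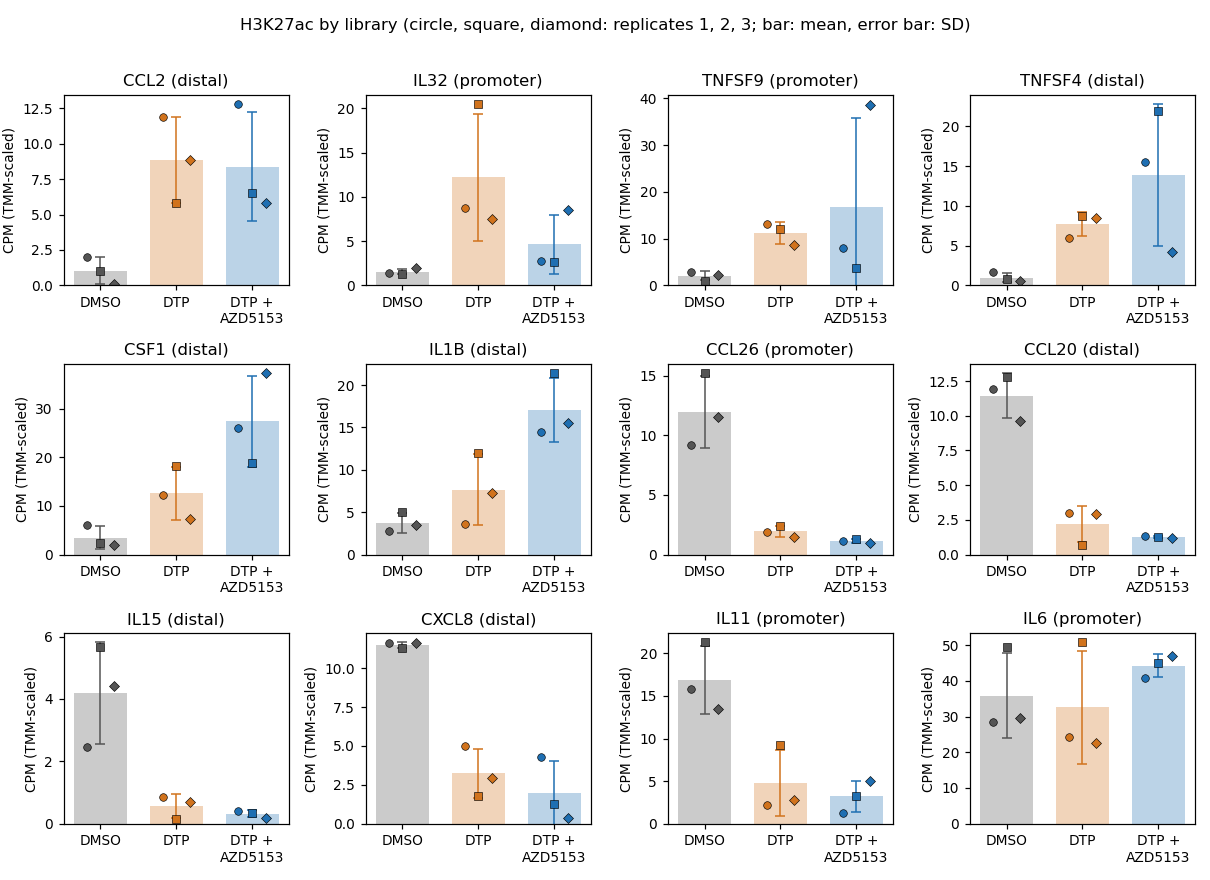
H3K27ac in CPM (y axis, from 0) by group (x axis) at 12 regions, with bars for means, error bars for SDs and a symbol for each replicate. CCL2, TNFSF4 and CSF1 regions are low in the 3 DMSO libraries and high in the treated ones, the CCL26, CCL20 and IL15 regions show the reverse, and the IL6 promoter overlaps in all 3 groups.

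Neutrophil-attracting CXC chemokine genes had 14 regions at CXCL1, CXCL2, CXCL3, CXCL6 and CXCL8, and a single call among them. The called share of all tested regions was 10.7% in osimertinib DTP cells and 18.1% with AZD5153. CXCL8, encoding interleukin 8, had 8 regions from 12522 bp to 36673 bp upstream, and all 8 differences from DMSO were negative in both treated groups. The region farthest upstream (chr4:73703367-73703868) had 11.6, 11.3 and 11.6 CPM in DMSO, 4.97, 1.81 and 2.92 CPM in osimertinib DTP and 4.31, 1.28 and 0.387 CPM with AZD5153. The DMSO libraries were nearly equal and all treated ones lower. The log2 difference was -1.81 ± 0.67 (adjusted p = 0.0907) in osimertinib DTP cells and -2.46 ± 0.69 (adjusted p = 0.0214) with AZD5153. The sum of the 8 CXCL8 regions gave -1 ± 0.49 (adjusted p = 0.239) and -0.87 ± 0.49 (adjusted p = 0.263). The CXCL8 region with the highest level, 35298 bp upstream, gave -1.02 ± 0.67 (adjusted p = 0.375) and -0.96 ± 0.67 (adjusted p = 0.349).

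The other genes of the same chromosome 4 cluster had positive differences that did not pass the test, apart from CXCL2. The stronger of the 2 CXCL1 regions, 47926 bp downstream, measured 3.99, 3.51 and 1.91 CPM in DMSO and 9.08, 13.4 and 14.3 CPM in osimertinib DTP (log2 difference 1.96 ± 0.64, adjusted p = 0.057). With AZD5153 it measured 11.3, 16.9 and 2.71 CPM, the low value being replicate 3. The difference of 1.72 ± 0.64 (adjusted p = 0.0688) became 2.15 (adjusted p = 0.00128) without that replicate. The CXCL3 promoter region gave 1.1 ± 0.57 (adjusted p = 0.239) and 1.25 ± 0.58 (adjusted p = 0.143). The CXCL2 promoter region gave -0.14 ± 0.53 (adjusted p = 0.908) and 0.4 ± 0.53 (adjusted p = 0.654). The single CXCL6 region had 1.54, 1.55 and 1.01 CPM in DMSO, 6.5, 5.29 and 9.37 CPM in osimertinib DTP (2.36 ± 0.87, adjusted p = 0.0882) and 2.2, 8.38 and 0 CPM with AZD5153 (1.39 ± 0.86, adjusted p = 0.285, and 1.93 with an adjusted p of 0.00921 without replicate 3). Both NF-kappaB-like matches of the CXCL2 window lie just outside its region, and of the CXCL3 pair one lies outside and the other at the edge of its region.

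CX3CL1, a membrane-bound chemokine, had 4 promoter regions, and the one 542 bp downstream of the start (chr16:57377514-57378015) fell in osimertinib DTP cells. Its level was 13.1, 29.9 and 19.5 CPM in DMSO, 5.93, 5.57 and 5.54 CPM in osimertinib DTP and 11.4, 8.96 and 5.8 CPM with AZD5153. The log2 difference was -1.87 ± 0.55 (adjusted p = 0.0358) in osimertinib DTP cells and -1.25 ± 0.54 (adjusted p = 0.115) with AZD5153. CXCL13, a B-cell attractant, had 8 distal regions with differences from -1.68 to 0.81 in osimertinib DTP cells and none called.

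Colony-stimulating factor genes behaved unlike each other. CSF1, the growth factor of macrophages, had 18 regions over its body and flanks, 17 of them with positive differences in each treated group, none called in osimertinib DTP cells and 12 called higher with AZD5153. The strongest rise was at a distal region 32133 bp upstream (chr1:109877608-109878109). It measured 6.17, 2.27 and 2.01 CPM in DMSO, 12.3, 18.2 and 7.25 CPM in osimertinib DTP and 26, 18.8 and 37.3 CPM with AZD5153. The 3 groups formed 3 separate ranges in that order. The log2 difference from DMSO was 1.84 ± 0.61 (adjusted p = 0.0595) and 2.96 ± 0.63 (adjusted p = 0.00531), the latter call surviving every leave-out, and the treated groups differed by 1.12 ± 0.59 (adjusted p = 1).

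Around the CSF1 start much of the increase with AZD5153 came from replicate 3. The region 146 bp downstream of the start measured 12, 6.61 and 11.2 CPM in DMSO, 20.5, 31.6 and 15.9 CPM in osimertinib DTP and 22.3, 16.8 and 69.8 CPM with AZD5153. Its difference of 1.87 ± 0.61 (adjusted p = 0.041) was 0.97 (adjusted p = 0.106) without that replicate. Over the whole gene, 10 of the 12 called CSF1 regions were called without it. The distal sum was 1.92 ± 0.43 (adjusted p = 0.00539, and 1.46 with an adjusted p of 0.00404 without replicate 3), and the promoter sum 2.05 ± 0.54 (adjusted p = 0.0159, and 1.36 with an adjusted p of 0.0405). The CSF1 distal sum kept its call in every leave-out (highest adjusted p = 0.0494).

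**Figure D3:**
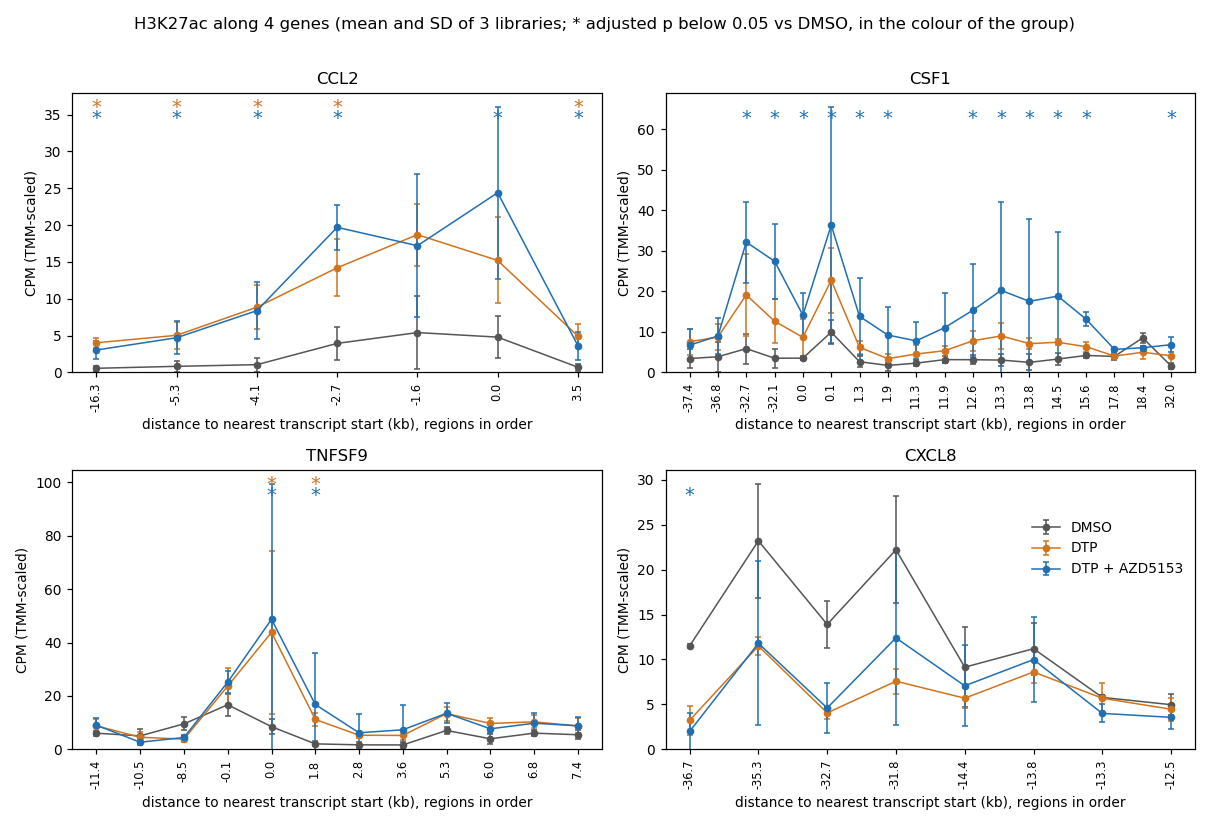
Mean H3K27ac in CPM (y axis, from 0; bars are SDs of 3 libraries, cut off at 0) at the regions of CCL2, CSF1, TNFSF9 and CXCL8 in order of distance from the nearest transcript start (x axis, kb). Asterisks in a group's colour mark an adjusted p below 0.05 against DMSO. At CCL2 both treated groups lie above DMSO throughout, at CSF1 the AZD5153 group has 12 asterisks and the osimertinib DTP group none, at TNFSF9 the asterisks lie at and just after the start, and at CXCL8 the treated groups lie lowest far upstream.

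IL34, the other ligand of the CSF1 receptor, had 2 promoter regions, both higher with AZD5153. The region 1770 bp upstream measured 2.72, 0.929 and 2.21 CPM in DMSO, 4.49, 6.96 and 2.52 CPM in osimertinib DTP and 10.5, 7.8 and 10.4 CPM with AZD5153. The 3 AZD5153 libraries were the highest of all 9. The log2 difference from DMSO was 1.24 ± 0.59 (adjusted p = 0.194) and 2.28 ± 0.6 (adjusted p = 0.0151), and the sum of both regions rose by 1.97 ± 0.52 (adjusted p = 0.0148) with AZD5153. The IL34 region 2474 bp upstream, its strongest, rose by 1.78 ± 0.53 (adjusted p = 0.0285). CSF2, encoding GM-CSF, had 10 regions of mixed sign and 1 call, a fall of 2.02 ± 0.61 on the log2 scale (adjusted p = 0.0296) 20257 bp downstream with AZD5153. Its strongest region, 29611 bp downstream, gave -0.01 ± 0.56 (adjusted p = 0.995) and 0.23 ± 0.56 (adjusted p = 0.825).

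Of 5 fibroblast markers, 4 had regions, 20 in all. In osimertinib DTP cells 6 regions rose, all at 1 gene (30% called, against 10.7% of all tested regions). With AZD5153 12 rose, at 2 genes (60% called, against 18.1%). These calls were mostly at PDGFRB. The summed level of the fibroblast markers was 47.1 to 127 CPM in DMSO, 161 to 336 CPM in osimertinib DTP and 236 to 500 CPM with AZD5153. COL3A1 had no region. Endothelial markers had 27 regions, of which 1 fell in osimertinib DTP cells (3.7% called, against 10.7%). With AZD5153 5 fell (18.5% called, close to the 18.1% of all tested regions). The CD14 region held 3.26 to 4.34 CPM in DMSO, 2.82 to 3.9 CPM in osimertinib DTP and 6.4 to 10.1 CPM with AZD5153. The part of these markers in the CSF1, IL34 and CCL2 differences was not tested.

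Among the 16 regions of IL-1 family genes, 2 rose with AZD5153, where 9.05% of all tested regions were higher. Both lay at IL1B, the pro-inflammatory cytokine matured by inflammasomes. The IL1B exonic region (chr2:112823899-112824400, 9175 bp from the nearest start) measured 2.72, 5.06 and 3.52 CPM in DMSO, 3.63, 12 and 7.25 CPM in osimertinib DTP and 14.4, 21.4 and 15.5 CPM with AZD5153. The AZD5153 libraries lay above all others, and osimertinib DTP libraries overlapped with DMSO. The log2 difference was 1.01 ± 0.57 (adjusted p = 0.284) in osimertinib DTP cells and 2.18 ± 0.58 (adjusted p = 0.0165) with AZD5153. The neighbouring IL1B region, 8381 bp from the start, rose by 1.92 ± 0.61 (adjusted p = 0.0383). The sum of both was 2.04 ± 0.56 (adjusted p = 0.0175), lost in 4 of 9 leave-outs (highest adjusted p = 0.0991, without DMSO replicate 1).

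IL37, an anti-inflammatory member of the same family, had 6 distal regions, of which the one 32158 bp upstream fell from 5.44, 6.82 and 4.43 CPM in DMSO to 0.86, 1.25 and 1.31 CPM in osimertinib DTP and 1, 0.233 and 2.13 CPM with AZD5153. The differences were -2.28 ± 0.67 (adjusted p = 0.0381) and -2.37 ± 0.69 (adjusted p = 0.0247). IL18 had 8 regions and no call. Its strongest, 6054 bp into the gene, gave -0.37 ± 0.6 (adjusted p = 0.771) and 0.31 ± 0.6 (adjusted p = 0.77). At all 8 IL18 regions osimertinib DTP + AZD5153 replicate 3 held less than its other replicates, with 19.7, 23.4 and 4.25 CPM at the strongest one.

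The IL-6 family genes, whose products signal through gp130, gave 2 calls in 18 regions. Both calls were with AZD5153, where 18.1% of all tested regions were called. IL6 itself was among the most strongly marked member genes, and none of its 6 regions was called. Its region over the start measured 28.4, 49.5 and 29.5 CPM in DMSO, 24.4, 50.8 and 22.5 CPM in osimertinib DTP and 40.8, 44.9 and 47 CPM with AZD5153. All 3 groups overlapped, and the differences were -0.14 ± 0.5 (adjusted p = 0.908) and 0.31 ± 0.5 (adjusted p = 0.726). The 6 IL6 regions ranged from -0.56 to 0.22 in osimertinib DTP cells and from -0.21 to 0.66 with AZD5153.

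IL11 fell with AZD5153 in 1 of 5 promoter regions, 148 bp upstream of its start (chr19:55370611-55371112). That region covers the upstream part of the window shown, and the AP-1 letters lie outside it, between this region and the one over the start. The levels were 15.8, 21.3 and 13.5 CPM in DMSO, 2.2, 9.18 and 2.82 CPM in osimertinib DTP and 1.3, 3.26 and 5.03 CPM with AZD5153. Treated and control libraries did not overlap, with osimertinib DTP replicate 2 the highest of the treated ones. The differences were -1.84 ± 0.65 (adjusted p = 0.0766) and -2.42 ± 0.67 (adjusted p = 0.02). The region over the start was more divided: osimertinib DTP replicate 2 held 25.3 CPM there, above all DMSO libraries, while replicates 1 and 3 held 2.29 and 2.01 CPM. That region gave -0.96 ± 0.81 (adjusted p = 0.51) and -2.13 ± 0.85 (adjusted p = 0.0903), and -2.98 (adjusted p = 0.00646) without osimertinib DTP + AZD5153 replicate 3.

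LIF, a cytokine of the same family, had positive differences at 7 of 7 regions in both treated groups and 1 call, 6752 bp upstream (1.68 ± 0.56, adjusted p = 0.0447 with AZD5153). That region measured 13.7, 11.6 and 11 CPM in DMSO, 12.9, 35.1 and 19.6 CPM in osimertinib DTP and 24.4, 29.4 and 62.6 CPM with AZD5153, and without the combination's replicate 3 the difference was 1.15 (adjusted p = 0.0573). The strongest LIF region, 6114 bp upstream, gave 0.63 ± 0.51 (adjusted p = 0.491) and 1.31 ± 0.52 (adjusted p = 0.0862).

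IL32, a cytokine made by epithelial and lymphoid cells, was, with CX3CL1, one of the genes called in osimertinib DTP cells and not with AZD5153. Its region over the start (chr16:3065198-3065699) covers both NF-kappaB-like matches of the window shown. DMSO libraries had 16, 13 and 19 counts (1.45, 1.34 and 1.91 CPM), osimertinib DTP libraries 91, 147 and 74 (8.7, 20.5 and 7.45 CPM) and AZD5153 libraries 27, 23 and 44 (2.71, 2.68 and 8.5 CPM). The osimertinib DTP libraries stood above all DMSO libraries. With AZD5153 replicates 1 and 2 lay near DMSO while replicate 3 lay within the osimertinib DTP range. In each treated group the highest value came from the library with the high promoter share. The difference from DMSO was 2.95 ± 0.66 (adjusted p = 0.0109), 7.7-fold, in osimertinib DTP cells and 1.53 ± 0.64 (adjusted p = 0.108) with AZD5153. The difference between the treated groups was -1.42 ± 0.62 (unadjusted p = 0.0342, adjusted p = 1), and -2.17 (adjusted p = 0.0713) without osimertinib DTP + AZD5153 replicate 3, so a difference between them was not shown. The call in osimertinib DTP cells was lost in 4 of 9 leave-outs (highest adjusted p = 0.0849, without DMSO replicate 2).

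IL15, a survival factor of T cells and natural killer cells, fell at 2 intronic regions. At the first (chr4:141642272-141642773, 5325 bp from the start) the levels were 2.45, 5.68 and 4.43 CPM in DMSO, 0.86, 0.139 and 0.705 CPM in osimertinib DTP and 0.401, 0.349 and 0.193 CPM with AZD5153. All treated libraries were below all controls, with 1 to 9 counts each. The difference was -2.8 ± 0.72 (adjusted p = 0.0208) and -3.62 ± 0.78 (adjusted p = 0.00561). The second, 6303 bp from the start, gave -1.81 ± 0.71 (adjusted p = 0.111) and -2.89 ± 0.76 (adjusted p = 0.0154). The IL15 region over the start was not called and had values of the other sign, 0.94 ± 0.64 (adjusted p = 0.389) and 1.33 ± 0.64 (adjusted p = 0.162). The 2 other IL15 promoter regions, at a start farther along the gene, had negative values, -1.03 ± 0.68 (adjusted p = 0.375) and -0.53 ± 0.67 (adjusted p = 0.641) at one and -0.95 ± 0.63 (adjusted p = 0.382) and -0.25 ± 0.62 (adjusted p = 0.828) at the other. The distal sum of IL15 was -2.11 ± 0.65 (adjusted p = 0.0446, and 0.0918 with the block) and -3.15 ± 0.69 (adjusted p = 0.00469).

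IL12A encodes the p35 subunit of interleukin 12. Its 2 regions 24411 and 23861 bp upstream, annotated as intronic, fell with AZD5153 by 2.32 ± 0.67 (adjusted p = 0.0233) and by 2.29 ± 0.67 (adjusted p = 0.0255) on the log2 scale. The stronger of them measured 5.71, 11.3 and 8.45 CPM in DMSO, 2.29, 2.78 and 2.72 CPM in osimertinib DTP and 2.1, 2.56 and 0.193 CPM with AZD5153. The IL12A region over the start gave 0.71 ± 0.63 (adjusted p = 0.533) and 1.14 ± 0.63 (adjusted p = 0.23). IL24 had 6 regions and 1 call, a fall of 1.93 ± 0.61 (adjusted p = 0.0354) with AZD5153 at 431 bp upstream of its start. IL22, a cytokine that acts on epithelia, had 1 distal region with 4.08, 4.23 and 3.62 CPM in DMSO, 4.59, 1.81 and 1.41 CPM in osimertinib DTP and 1.7, 0.349 and 0 CPM with AZD5153, a difference of -2.39 ± 0.82 (adjusted p = 0.05, not called) among regions and of -2.38 ± 0.77 (adjusted p = 0.0438) among gene sums. IL4, IL16 and IL21 had 10 regions and no call, and the strongest IL16 region gave 0.87 ± 0.53 (adjusted p = 0.325) and 1.36 ± 0.53 (adjusted p = 0.0833). IFNB1, the single interferon gene with a region, gave 1.25 ± 0.66 (adjusted p = 0.288) and 1.61 ± 0.66 (adjusted p = 0.119) as a distal sum, the latter 2.05 (adjusted p = 0.00764) without osimertinib DTP + AZD5153 replicate 3.

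TNF superfamily ligand genes had 31 regions at 7 genes, 9 promoter and 22 distal. In osimertinib DTP cells 4 rose, with AZD5153 6 rose, and none was called lower. Over all tested regions 5.58% were higher and 5.13% lower in osimertinib DTP cells, and 9.05% and 9.01% with AZD5153. Whether the family differs from other regions was not tested. TNFSF4, the ligand of OX40, had a single intronic region (chr1:173190257-173190758, 14800 bp from the nearest start). Its levels were 1.63, 0.826 and 0.503 CPM in DMSO, 5.93, 8.77 and 8.46 CPM in osimertinib DTP and 15.5, 21.9 and 4.25 CPM with AZD5153. DMSO was lowest throughout, and the combination's replicate 3 lay below all osimertinib DTP libraries. The difference was 2.94 ± 0.69 (adjusted p = 0.0134) and 3.79 ± 0.7 (adjusted p = 0.00266), the largest rise of any member region in the second comparison, over DMSO counts of 18, 8 and 5.

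TNFSF9, the ligand of the costimulatory receptor CD137, had 12 regions and rose at the 2 promoter regions at and after its start. The region 49 bp downstream of the start measured 11.6, 7.54 and 6.34 CPM in DMSO, 28.1, 79 and 24.4 CPM in osimertinib DTP and 20.6, 18.1 and 107 CPM with AZD5153. The highest value of each treated group came from the library with the high promoter share. The difference was 2.36 ± 0.71 (adjusted p = 0.0405, and 0.0952 with the block) in osimertinib DTP cells and 2.51 ± 0.71 (adjusted p = 0.0222) with AZD5153, the latter 1.18 (adjusted p = 0.0716) without replicate 3. The region 1790 bp downstream gave 2.44 ± 0.76 (adjusted p = 0.0469) and 3.01 ± 0.77 (adjusted p = 0.0136, and 1.49 with an adjusted p of 0.0258 without replicate 3). The promoter sum rose by 1.74 ± 0.52 (adjusted p = 0.0304) with AZD5153, and by 0.92 (adjusted p = 0.121) without replicate 3, while the sum of the 8 distal regions gave 0.52 ± 0.39 (adjusted p = 0.494) and 0.49 ± 0.39 (adjusted p = 0.446).

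TNFSF13, encoding APRIL, a B-cell survival factor, rose at its start (chr17:7558350-7558851) from 10.3, 9.6 and 9.65 CPM in DMSO to 23.4, 60.5 and 26.6 CPM in osimertinib DTP and 19.6, 23.2 and 52.8 CPM with AZD5153. The control libraries were tight and all treated ones at least as high as 19.6 CPM, again with the libraries of high promoter share on top. The difference was 1.9 ± 0.57 (adjusted p = 0.0406, and 0.0661 with the block) and 1.69 ± 0.57 (adjusted p = 0.0467, and 1.11 with an adjusted p of 0.0679 without the combination's replicate 3). The start region of its neighbour TNFSF12 (TWEAK) gave 0.81 ± 0.61 (adjusted p = 0.449) and 0.34 ± 0.62 (adjusted p = 0.755).

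TNFSF10, encoding the death ligand TRAIL, had positive differences at 8 of 8 regions in both treated groups and 1 call, 19571 bp upstream with AZD5153 (1.91 ± 0.62, adjusted p = 0.0395). That region measured 2.45, 1.24 and 1.11 CPM in DMSO, 3.54, 3.2 and 7.05 CPM in osimertinib DTP and 6.61, 8.61 and 2.9 CPM with AZD5153. Its strongest region, 22865 bp upstream, gave 0.93 ± 0.64 (adjusted p = 0.394) and 0.49 ± 0.64 (adjusted p = 0.649). TNFSF8, the CD30 ligand, rose with AZD5153 at 1 of 6 regions, an intronic one, by 2.6 ± 0.61 (adjusted p = 0.0087). TNFSF15 had 1 promoter region, at another transcript start than the RefSeq gene start, with 1.01 ± 0.73 (adjusted p = 0.425) and 0.92 ± 0.73 (adjusted p = 0.423).

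The third comparison set osimertinib DTP + AZD5153 against osimertinib DTP. The labels give 21 days of osimertinib for the former and 24 for the latter. Whether osimertinib was kept on with AZD5153 is not given. Adding AZD5153 and ending osimertinib therefore cannot be told apart here. The edgeR test called 0 of the 169 member regions and 0 of all 157919 (0% called), with 5 member regions and 7013 regions in all at an unadjusted p under 0.05, and DESeq2 called 0 member regions (0.0689% of all regions with an adjusted p). Without osimertinib DTP + AZD5153 replicate 3 it called 198 regions in all (0.122%) and still 0 members. The 5 member regions were at CSF1 (1.33 ± 0.62, 14475 bp from the start, and 0.39 without replicate 3), TNFSF8 (1.26 ± 0.58), CSF2 (-1.29 ± 0.61), IL22 (-1.79 ± 0.82) and IL32 (-1.42 ± 0.62), all with an adjusted p of 1. The median over the 169 regions was 0.29, against 0.06 over all regions. For 17 of the genes to be named, the region with the highest level was not itself called against DMSO, and these 17 regions ranged from -1.17 to 0.94 between the treated groups. Of them, 10 changed sign under at least 1 other setting. IL1B (1.17 and 1.18) and IL34 (0.86 and 1.05) had positive values at both regions and CCL2 from -0.42 to 0.68, so a member called with AZD5153 and not in osimertinib DTP cells, CSF1 included, was not shown to differ between the treated groups.

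To compare promoters with distal regions, counts were summed by gene and class, which gave 24 promoter and 26 distal sums. In osimertinib DTP cells 3 sums rose (CCL2 distal, TNFSF4 distal, IL32 promoter) and 2 fell (CCL26 promoter, IL15 distal), 5 of 50 where 10.7% of all 21039 gene sums were called (5.58% higher, 5.1% lower). With AZD5153 8 sums rose, of CCL2 and CSF1 in both classes, of TNFSF4 and IL1B distally and of IL34 and TNFSF9 at the promoter. With AZD5153 5 sums fell, of CCL26 at the promoter and of CCL22, IL12A, IL15 and IL22 distally, so 13 of 50 were called where 15.7% of all sums were (8.57% higher, 7.18% lower). In the comparison of the treated groups 0 sums were called (0% of all). In osimertinib DTP cells DESeq2 called 12 sums (14.9% of all), a fit of only both groups 15 (19.8%), no filter on low counts 8 (10.6%), the block 5 (7.84%) and an adjusted p under 0.01 2 (4.65%). Without DMSO replicate 2 the count was 1 (3.29%), without DMSO replicate 3 likewise 1 (4.69%), and without osimertinib DTP + AZD5153 replicate 3 it was 17 (20.5%). With AZD5153 DESeq2 called 20 sums (20.5%), the block 10 (13%) and an adjusted p under 0.01 5 (7.83%), and the count was 4 (7.23%) without DMSO replicate 2 and 21 (22.4%) without the combination's replicate 3. The IL32 promoter sum was 2.58 ± 0.66 (adjusted p = 0.0175), the CCL22 distal sum -2.61 ± 0.67 (adjusted p = 0.0132) and the IL12A distal sum -2.34 ± 0.65 (adjusted p = 0.0213). Of the 13 genes with both classes, 8 had the same sign in both in osimertinib DTP cells and 10 with AZD5153. IL15 and IL12A had the lowest distal sums, with promoter sums above 0, at 0.46 ± 0.51 (adjusted p = 0.591) and 1.14 ± 0.64 (adjusted p = 0.264) with AZD5153. Whether the classes of 1 gene differed from each other was not tested.

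**Figure D4:**
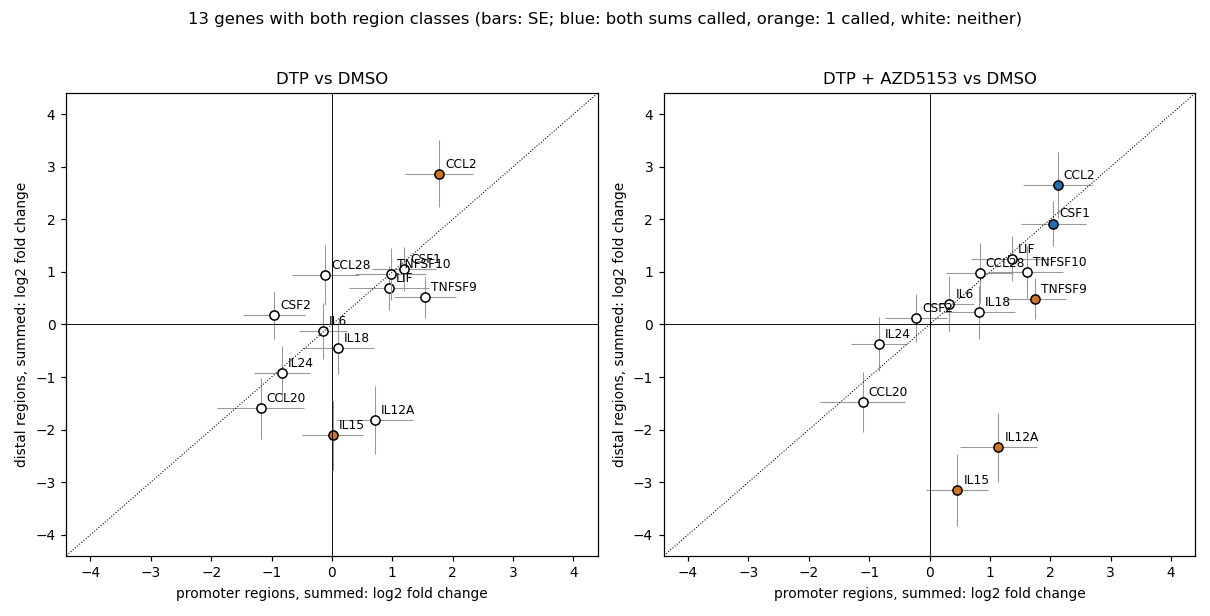
Log2 fold change of summed distal H3K27ac (y axis) against summed promoter H3K27ac (x axis) for the 13 genes with both classes, with SE bars and the line of equality dotted. CCL2 and CSF1 lie at the upper right and are called in both classes with AZD5153, TNFSF9 lies below the line with only its promoter called, and IL15 and IL12A lie below 0 for distal and, with AZD5153, above 0 for promoter sums.

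The peak lists, called by library, come from the same reads as the counts. They describe the called regions and add no separate support for the calls. A peak covered 50% or more of a member region in 107 to 123 of the 169 regions in DMSO lists and 136 to 141 in osimertinib DTP lists. The AZD5153 lists gave 139 and 136 for replicates 1 and 2 and 94 for replicate 3. By replicate, the full DMSO lists held 63667, 58749 and 62255 peaks. The osimertinib DTP lists held 64226, 54188 and 70227, and the AZD5153 lists 64784, 59702 and 57477. Annotated regions outside the members were not searched for a peak covering 50% or more. Whether the member counts differ from those of other regions was therefore not tested. All 169 regions had such a peak in at least 1 list and 35 in all 9 lists. Of the 10 regions higher in osimertinib DTP cells, 7 had a peak in 3 of 3 treated and 0 of 3 DMSO lists: 4 at CCL2 and 1 each at IL32, TNFSF4 and TNFSF9. Of the 7 lower ones, 3 had the reverse, at CCL26, IL15 and IL37. With AZD5153, 8 of the 13 lower regions had a peak in 3 of 3 DMSO lists and 0 of 3 treated ones. They lay at CCL20, CCL26, CSF2, IL11, IL12A, IL37 and, for 2 regions, IL15. Of the 29 higher regions with AZD5153, 7 had a peak in 3 of 3 treated and 0 of 3 DMSO lists. The replicate 3 list covered the fewest member regions, which makes 0 of 3 easier and 3 of 3 harder to reach in this group. The IL32 region had a peak in 1 of 3 AZD5153 lists, that of replicate 3. Member regions had 3 to 39 counts in the pooled input, with a median of 13 against 10 over all regions.

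Of 41 genes to be named whatever their result, 15 had no annotated region: CXCL5, CXCL12, CXCL14, CXCL16, CCL5, IL1A, IL7, IL23A, IL33, TSLP, CSF3, TNF, TNFSF13B, TNFSF18 and IFNE. A gene without an annotated region may still hold counts, since regions that the table did not annotate lay within 3 kb of the RefSeq start of CXCL5 (1), CXCL12 (2), IL23A (1) and TNFSF18 (2).

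Genes around the ligands were counted in 3 further lists. For comparison, 10.7% of all tested regions were called in osimertinib DTP cells and 18.1% with AZD5153. Of 66 receptor genes, 44 had 224 regions, 8 higher and 14 lower in osimertinib DTP cells (9.82% called) and 25 higher and 24 lower with AZD5153 (21.9%). CXCR4, the receptor of CXCL12, fell at a distal region by 3.27 (adjusted p = 0.0122) and with AZD5153 by 4.18 (adjusted p = 0.00307), and IL1RL1, the receptor of IL33, fell at its promoter by 4.24 (adjusted p = 0.00298) and 3.99 (adjusted p = 0.00156) on the log2 scale. ACKR3, a scavenging receptor of CXCL12, rose at its promoter by 3.33 (adjusted p = 0.00679) and 3.69 (adjusted p = 0.00245). Of 24 further ligand genes, 12 had 41 regions, with 2 higher and 2 lower (9.76% called), then 4 higher and 6 lower (24.4%). CD70 rose at its promoter by 2.24 (adjusted p = 0.0463) and 3.18 (adjusted p = 0.00708), and FASLG fell at a distal region by 2.83 (adjusted p = 0.0327) and 3.38 (adjusted p = 0.0123). Of 20 NF-kappaB and C/EBP regulators, 19 had 107 regions, with 4 higher and 2 lower (5.61% called), then 6 higher and 7 lower (12.1%). TNFAIP3, a brake on NF-kappaB, fell at a distal region by 3.74 (adjusted p = 0.00859) and 3.49 (adjusted p = 0.00685), and NFKBIZ, a nuclear NF-kappaB cofactor, rose at a distal region by 3.04 (adjusted p = 0.0132) and 3.84 (adjusted p = 0.0029). These regions were picked from the lists as the largest changes, after their values were seen.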

How the data were processed

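H3K27ac ChIP-seq of H1975 cells gave 9 libraries in 3 groups and a pooled input with 1870885 counts. The deposited values are whole read counts per 502 bp region, not normalized, in a table of 169637 regions and an annotated table of 67387 with the same counts. The deposited peak lists, called per library by the authors, give a fold enrichment ratio with −log10 p and −log10 q values and a score. Per the submitters' processing notes, the tools were BWA 0.7.17, MACS2 2.2.6, featureCounts 2.0.0 and ChIPseeker 1.29.1, with build hg38.

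Counts were tested in 1 fit of 9 libraries with edgeR 4.0.16 (R 4.3.3; filterByExpr with a minimum count of 10, TMM scaling, robust quasi-likelihood test) and Benjamini-Hochberg adjustment over all 157919 regions kept, at 0.05. The ± values are standard errors. Counts were also summed by gene and class over 21039 sums. The labels call the libraries biological triplicates without naming separate cultures, so p-values may measure only technical spread. Same-numbered DMSO and osimertinib DTP libraries deviated together (correlations 0.349, 0.368 and 0.341), so blocked values are printed where they change that call; the other group pairs did not meet this criterion.

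The members, gene lists and tests were chosen with earlier results of these data known. Named regions are the called ones with the largest change per gene and class, at most 10 in each direction, the called sums, and the strongest region of 41 set genes. Further regions of these genes, and genes beyond the limits, were named after their values were seen. Alternatives were scaling without TMM, a loess offset (span 0.3), no filter on low counts, the replicate block, annotated regions only, DESeq2 1.42.0, only both groups, a threshold of 0.01, a promoter bound of 1 kb and leaving out each library. The tests were tried on simulated data.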

Additional observations from a re-analysis of the deposited data

How the results depend on the processing

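For osimertinib DTP against DMSO, 17 member regions were called, against 35 with DESeq2, 64 when only both groups were fitted, 1 at an adjusted p under 0.01, and 0 to 66 when a library was left out. For osimertinib DTP + AZD5153 against DMSO, 42 were called, against 26 with only both groups, 7 at 0.01, and 6 to 68 with a library left out. The gene sums gave 5 calls in the first comparison, against 8 without a filter, 12 with DESeq2, 15 with only both groups, 2 at 0.01, and 1 to 17 with a library left out. They gave 13 in the second, against 20 with DESeq2, 5 at 0.01, and 4 to 21 with a library left out. The cause was not tested. With the replicate block the counts were 19 and 35 regions and 5 and 10 sums, and 0 regions in the comparison of the treated groups.

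Values near 0 changed sign. In osimertinib DTP cells the strongest CSF2 region gave 0.06 without a filter, 0.03 with the block and 0.04 with only both groups, and -0.29 to 0.39 with a library left out. The same leave-outs gave -0.8 to 0.28 for CCL28, -0.58 to 0.23 for CXCL2, -0.09 to 1.19 for IL12A and -0.55 to 0.23 for IL6. Between the treated groups TNFSF9 gave -0.03 with the block and -1.18 to 0.85 with a library left out, and CSF1 -0.21 to 0.99. With AZD5153 against DMSO a loess offset gave -0.01 for CSF2 and -0.04 for IL6, and leave-outs gave -0.3 to 0.59 for CSF2, -0.07 to 0.75 for IL18, -0.48 to 0.85 for TNFSF10 and -0.21 to 0.56 for TNFSF12. None of these regions was called in the comparison named. Regions with few counts, such as those of IL15 and CCL2 in the group where they are low, have folds set by a few reads.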
